A study of Mus musculus with 2 samples.

Results

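The mesothelium without Barx1 comprised 240 cells of 24312 filtered barcodes, 217 of them from Fgf9 Null pancreas and 23 from Control pancreas. The cells were chosen from the deposited counts by a rule. A barcode had to carry at least 2000 unique molecular identifiers (UMIs, each standing for 1 captured RNA molecule) with under 10% of them from mitochondrial genes. The summed UMIs of Upk3b, Upk1b, Lrrn4 and Msln had to reach 3 and 2 per 10000, Epcam and Cdh1 together could hold at most 1 UMI, Cpa1 and Ctrb1 together had to stay under 30 per 10000, and Barx1 had to be at 0 UMIs. The same rule without the Barx1 condition gave 635 mesothelial cells, 333 of them Control and 302 Null. The other 395 of them held a Barx1 UMI, 310 in Control and 85 in Null, and served as the nearest comparison.

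The study asked what Fgf9 does in pancreas development and profiled the transcripts of dissociated fetal mouse pancreas (embryonic day 14.5, C57BL/6J background) by single-cell RNA sequencing. The Control library pooled 8 pancreata from 3 litters whose embryos were Fgf9 +/+ or Fgf9 +/-, so it mixed wild-type and heterozygous cells. The Null library pooled 3 pancreata from 3 litters of Fgf9 -/- embryos, in which a LacZ cassette had been inserted into the Fgf9 locus. Both pools were dissociated with TrypLE and sorted for DAPI-negative cells under a size gate set to remove doublets. With 1 library per genotype there is no replicate check, no difference between the genotypes could be tested, and single cells were not treated as replicates. The intervals given below are exact 95% intervals that cover counting error only.

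The mesothelium is the single-layered epithelium of mesodermal origin that covers the organs of the body cavities, and in the embryo it secretes signals to the mesenchyme beneath it. Fgf9 is a secreted growth factor that embryonic mesothelia and epithelia make and that signals to neighbouring mesenchyme through Fgfr1 and Fgfr2. Barx1 is a homeobox gene of the foregut mesenchyme, best known from the stomach, where it is needed for stomach identity, and from the spleen. Upk3b and Upk1b encode uroplakins, Lrrn4 a leucine-rich repeat membrane protein and Msln mesothelin, all used as markers of mesothelia.

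The label was checked against mesothelial genes that the rule did not use. Wt1, the Wilms tumour transcription factor of mesothelia, had a level of 188 CPM (UMIs per 1000000 UMIs of the cell set without mitochondrial and haemoglobin genes) in the Control cells without Barx1 and 158 CPM in the Null cells, against 11.7 and 4.49 CPM in all other filtered cells. Igfbp5, a binding protein of insulin-like growth factors, stood at 2363 and 2001 CPM, against 129 and 95.2 CPM in other cells. Bnc1, a zinc finger gene of mesothelia, had 85.2 and 95.4 CPM against 3.59 and 1.77 CPM. As a description of the selection, among the rule's own markers Upk3b had a UMI in 22 of 23 Control and 215 of 217 Null cells, whereas Msln was at 0 in the Control cells and had a UMI in 32 Null cells. Summed over 21 mesothelial genes outside the rule, the level was 4480 CPM in Control and 4456 CPM in Null, against 1701 and 1836 CPM in other cells. Igfbp5, which is on that list, supplied 2363 and 2001 CPM of these sums, and 129 and 95.2 CPM in other cells. On Wt1, Igfbp5 and Bnc1, which are outside the rule, the cells carried the label.

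Several measures differed between the cell sets and stand beside every comparison below. Median depth was 10489 UMIs per cell (4554 to 17959) in the Control cells without Barx1 and 18926 (3237 to 55695) in the Null cells, and the Control set held 231938 UMIs in all against 4329258. Of the Control cells 13 of 23 carried at least 2 Xist UMIs and no Null cell did, while 198 Null cells carried a Y-linked UMI with at most 1 Xist UMI, so the 2 sets also differed in sex. Acinar markers summed to 1381 CPM in Control and 546 CPM in Null, endocrine markers to 628 and 274 CPM, and ductal or trunk markers to 188 and 65.8 CPM. Mesenchymal markers stood at 5354 and 10997 CPM, and neural markers at 44.8 and 228 CPM, almost all from Stmn2, while Tubb3 and Elavl4 were at 0 in Control and 0.715 CPM each in Null. Endothelial markers summed to 62.8 and 164 CPM, almost all from Kdr, while Pecam1 and Cdh5 were at 0 in Control and at 0.715 and 0.238 CPM in Null. Mural or smooth muscle markers summed to 238 and 373 CPM, immune markers to 8.97 and 10.3 CPM and erythroid markers to 0 and 14.5 CPM. Scaled on the acinar markers, free RNA would make up 22.4% of the UMIs in the Control cells and 5.35% in the Null cells without Barx1. Subtracting it gave 1229 of 7794 genes at least 2-fold higher (15.8%) and 396 lower (5.08%) in Null over Control, the comparison described below. The part of depth and sex in the results was not tested. The libraries shared 180 barcode sequences, 0 of them among the 240 cells, and Scrublet marked 0 Control and 2 Null cells of the set as doublets.

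Cells without Barx1 were 6.91% of the mesothelial cells in Control (4.43% to 10.2%, 23 of 333) and 71.9% in Null (66.4% to 76.9%, 217 of 302). As a share of all filtered barcodes they were 0.141% (0.0894% to 0.211%) and 2.71% (2.37% to 3.09%). The rule used the Barx1 counts, so these shares describe the selection, and the sort sets which cells entered each library. The Null cells were the deeper ones. With every cell thinned at random to 2000 UMIs, 43.5% of Control mesothelial cells (38.1% to 49.1%) and 90.4% of Null cells (86.5% to 93.5%) had no Barx1 UMI. Among mesothelial cells with at least 10000 UMIs the unthinned shares were 4.71% (12 of 255) and 71.1% (197 of 277). Free RNA was gauged in the enzyme-high cells, those with at least 100 UMIs of Cpa1 and Ctrb1 per 10000, which should lack Barx1. There 9.36% of 3225 Control cells (median depth 26945 UMIs) and 1.202% of 2330 Null cells (47421 UMIs) held a Barx1 UMI, and 2.39% and 0.0429% did after thinning.

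In the Barx1-positive cells, which the rule set by at least 1 Barx1 UMI at unequal depth (medians of 12988 and 19296 UMIs), the median was 4.49 Barx1 UMIs per 10000 in Control (0.525 to 13.5) and 1.70 in Null (0.178 to 17.3). The ranges overlapped throughout, and the Null cells reached the higher maximum. Close to the threshold, 18 Control and 31 Null cells held exactly 1 Barx1 UMI and fell outside, whereas 203 Control and 33 Null cells held 5 or more. At the marker threshold, 4 Control and 9 Null cells of the set had exactly 3 marker UMIs, and 4 Control and 3 Null cells that met every other condition had exactly 2. A further 13 Control and 69 Null cells met every condition but that on Epcam and Cdh1, and 4 and 7 missed only that on Cpa1 and Ctrb1.

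**Figure D1:**
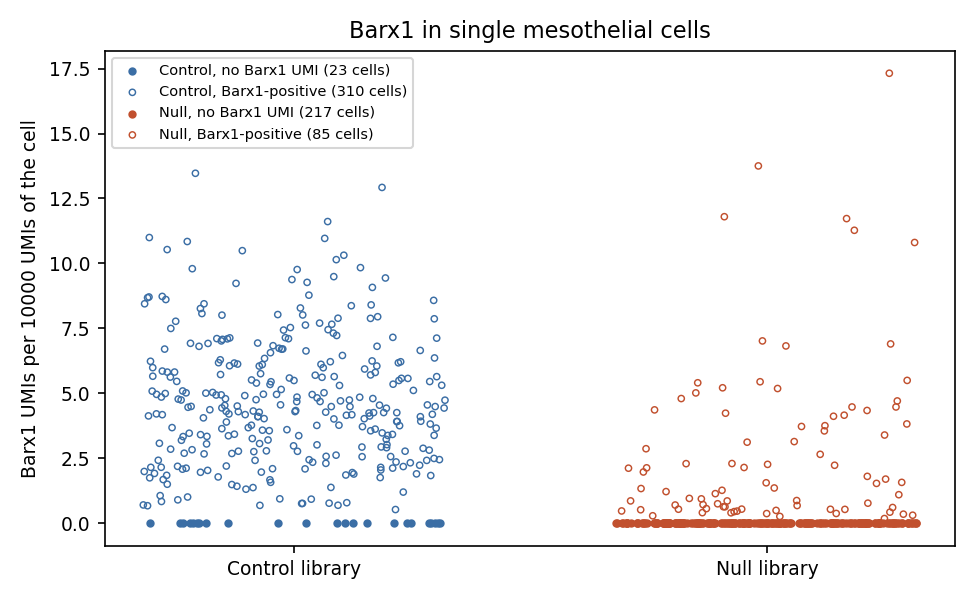
Barx1 UMIs per 10000 UMIs in each mesothelial cell of the Control (333 cells) and Null (302 cells) library. Cells at 0, which make up 6.91% of the Control and 71.9% of the Null cells, form the set described here, and the positive cells have medians of 4.49 and 1.70.

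Fgf9 transcripts were still counted in the Null library, and among the mesothelial sets their level was lowest in the Null cells without Barx1. The gene (ENSMUSG00000021974) lies on the plus strand of chromosome 14, 58070547 to 58112720 in GRCm38 and is overlapped on the other strand by the gene model Gm17109. No source used here says if counting was strand-specific. Its level was 130 CPM in Control cells without Barx1 (87.1 to 187, 29 UMIs), 123 CPM in Control Barx1-positive cells (112 to 134, 504 UMIs), 82.2 CPM in Null Barx1-positive cells (69.4 to 96.6, 147 UMIs) and 23.8 CPM in Null cells without Barx1 (19.4 to 29.0, 100 UMIs). The Null cells without Barx1 lay below the intervals of all 3 other mesothelial sets. All other filtered cells were at 7.80 CPM in Control and 0.698 CPM in Null. The interval of the Null Barx1-positive cells lay below that of the Control Barx1-positive cells and overlapped that of the Control cells without Barx1. The tag counted at the 3' end may lie outside the disrupted part of the locus, so these counts do not check the genotype.

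In the cells without Barx1, Fgf9 was lower in Null, at a log2 ratio of -2.45 (-3.06 to -1.80). In the Barx1-positive cells the ratio was -0.58 (-0.85 to -0.31), and over all mesothelial cells, which contain both sets, it was -1.58 (-1.80 to -1.36). A UMI of Fgf9 was seen in 10 of 23 Control cells without Barx1 (43.5%) and in 69 of 217 Null cells (31.8%), and in 71.6% and 64.7% of the Barx1-positive cells. Thinned to 2000 UMIs, the shares were 17.4% and 5.53% without Barx1 and 21.0% and 14.1% with it. Enzyme-high cells held a Fgf9 UMI in 3.53% of Control and 0.558% of Null cells before thinning. A single Control cell held 10 of the 29 Control UMIs (34.5%), and without it the ratio was -1.94. Within the Null library Fgf9 was lower in cells without Barx1 than in cells with it, at -1.79 (-2.17 to -1.41), while within Control the ratio was 0.08 (-0.51 to 0.62).

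Genes of the FGF response were sparse in these cells. Of 15 FGF/ERK feedback and target genes, which include the Spry, Dusp and Etv genes that FGF signalling switches on, only 2 reached 50 UMIs over both libraries, 1 higher and 1 lower in Null. Their summed level was 179 CPM in Control cells without Barx1 (128 to 244) and 104 CPM in Null cells (94.2 to 114), a log2 ratio of -0.79 (-1.26 to -0.29), against 196 and 124 CPM in the Barx1-positive cells. The ratio in the positive cells was -0.66 (-0.88 to -0.44). In all other filtered cells the list was higher, at 535 CPM in Control and 414 CPM in Null. The part of free RNA in these sums was not tested. Dusp6, the ERK phosphatase, had 22.4 CPM in Control and 4.29 CPM in Null cells without Barx1, and Etv4 was at 0 in all 4 sets. Fgfr1, a receptor of Fgf9, had 22.4 and 28.6 CPM. Flrt2 and Flrt3, membrane proteins that can bind FGF receptors, had 117 and 112 CPM in Control and 58.9 and 73.0 CPM in Null. Fgf18, a ligand of the same branch of the family as Fgf8, had 17.9 and 19.8 CPM, below the 44.3 and 43.6 CPM of the Barx1-positive cells of each library.

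Against all other filtered cells, 425 of 8081 genes measured in the set (5.26%; measured means at least 50 UMIs over both libraries) were at least 4-fold higher in both libraries. Among the genes furthest above the rest, outside the rule, were the receptor gene Oprk1, the keratin Krt14 and the desmosomal cadherin Dsc3. Oprk1, which encodes the kappa opioid receptor, stood above other cells by a log2 ratio of 7.06 in Control (6.52 to 7.55) and 6.25 in Null (6.12 to 6.38), with 1.21 and 3.37 CPM in the other cells. Krt14, an intermediate filament gene of basal epithelia, had ratios of 6.60 and 6.67. Mab21l2, a developmental gene of the mab-21 family, had 6.90 and 5.10. The growth factor Gdf6, the water channel Aqp5, the nuclear receptor Nr2f1, the adhesion protein Ntm, and Tm4sf5 and Ahnak2 were also among the leading genes, with ratios between 4.32 and 6.12. The other cells here hold no mesothelial cell by the rule, so these ratios mark the mesothelium as a whole as well as its Barx1-negative cells.

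The sharper comparison was with the mesothelial cells of the same library that held Barx1. Measured here means at least 50 UMIs over both sets in each library. Of 7925 genes measured, 27 (0.341%) were at least 2-fold higher in both libraries in the cells without Barx1 and 52 (0.656%) at least 2-fold lower. The median gene had a log2 ratio of -0.08 in Control and -0.11 in Null, so neither comparison was shifted as a whole. The higher group held Oprk1, Mab21l2, Csrp2 and Dcn, and the lower group Crabp1, Ptgds, Osr1 and Igfbp2. Dsc3, Angpt1 and Apela, described below, did not reach that minimum in Control and were not counted. When absence of Barx1 was judged after thinning to 2000 UMIs, which changes all 4 sets, 9 of 7925 genes were higher and 0 lower in both libraries.

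Oprk1 (chromosome 1, 5588466 to 5606131, plus strand, GRCm38) was seen in 10 of 23 Control and 130 of 217 Null cells without Barx1. Its level was 161 CPM in Control cells without Barx1, 17.0 CPM in Control cells with it, 257 CPM in Null cells without Barx1 and 53.1 CPM in Null cells with it. Both libraries showed the same order, with a log2 ratio of 3.24 (2.62 to 3.84) in Control and 2.27 (1.97 to 2.59) in Null. Per cell, the Null set ran from 0 over a median of 1.004 to 19.98 Oprk1 UMIs per 10000, and the Control set from 0 over a median of 0 to 8.52.

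Mab21l2 (chromosome 3, 86545581 to 86548629, minus strand, antisense to Lrba, which contains it) stood at 98.7, 9.99, 105 and 19.004 CPM in the same order of sets, with ratios of 3.30 and 2.47. Between Control and Null cells without Barx1 its ratio was 0.09 (-0.52 to 0.78), within counting error. It was seen in 12 of 23 Control and 128 of 217 Null cells without Barx1, and per cell the Null set ran from 0 over a median of 0.675 to 6.74 UMIs per 10000.

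Dsc3 was at 94.2 and 51.7 CPM in the cells without Barx1 of Control and Null, against 6.33 and 7.27 CPM in those with it. Among secreted signals, Angpt1, the ligand of the endothelial receptor Tek, was at 31.4 and 50.5 CPM against 0.974 and 3.35 CPM, ratios of 5.01 and 3.91, though the Control value comes from 5 cells. Apela, a peptide ligand of the apelin receptor, was at 62.8 and 110 CPM against 1.70 and 35.2 CPM, seen in 7 Control and 112 Null cells. Thus the Control ratio of Apela was 5.20 and the Null ratio 1.65.

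Some abundant genes of the extracellular space and cytoskeleton were also higher in the cells without Barx1. Csrp2, a LIM-domain protein of smooth muscle cells, was at 1036 CPM in Control and 1484 CPM in Null, against 394 and 404 CPM. Dcn, the small proteoglycan decorin, was at 1076 and 1834 CPM against 499 and 648 CPM. Both genes had intervals above 0 in each library, at 1.40 (1.19 to 1.60) and 1.88 (1.76 to 1.99) for Csrp2, and 1.11 (0.91 to 1.30) and 1.501 (1.41 to 1.59) for Dcn. Serpinf1, Col4a6, Gja1 and Itm2a followed with ratios between 0.66 and 1.70. The prostaglandin-degrading enzyme Hpgd had 211 and 126 CPM against 69.4 and 59.2 CPM, and the calmodulin-like gene Calml4 157 and 128 CPM against 73.1 and 60.4 CPM. Col4a6 and Itm2a are X-linked.

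Genes lower in the cells without Barx1 included retinoid, prostaglandin and growth factor genes. Crabp1, a retinoic acid binding protein, was at 26.9 CPM in Control cells without Barx1, 269 CPM in those with it, 2.62 CPM in Null cells without Barx1 and 47.5 CPM in those with it. The ratios were -3.32 (-4.77 to -2.20) and -4.18 (-5.23 to -3.27), and within each library the intervals of the 2 levels did not overlap. Osr1, a zinc finger transcription factor of early mesoderm, was at 67.3, 213, 50.3 and 107 CPM. With absence of Barx1 judged after thinning, the Control ratio was 0.043 for Osr1 and 0.17 for Igfbp2, so for both genes the Control direction depends on that choice. Ptgds, a prostaglandin D2 synthase, was at 67.3, 203, 43.9 and 155 CPM, and Bst2, an interferon-inducible membrane protein, at 49.3, 161, 41.5 and 96.1 CPM. The fibrillin Fbn2 had ratios of -1.53 and -0.97, Igfbp2, a binding protein of insulin-like growth factors, -1.32 and -1.03, and the membrane protein Tm4sf1 -2.24 and -1.23. Wnt5a, a secreted Wnt ligand, was at 17.9, 39.7, 6.91 and 17.9 CPM, and its Control interval included 0 (-3.04 to 0.24). The cyclin gene Ccnd1 was at 4.48 CPM from 1 UMI in Control against 50.9 CPM, and at 7.15 CPM against 23.5 CPM in Null. Mitotic genes were the rest of the leading group. Aspm was at 0 UMIs in the Control set against 155 UMIs in Control positive cells. Its ratio was -1.49 with 3 counts put for the 0, and -1.48 in Null. Cenpf, Spc25 and Ccnb1 had Null ratios between -1.06 and -0.99.

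**Figure D2:**
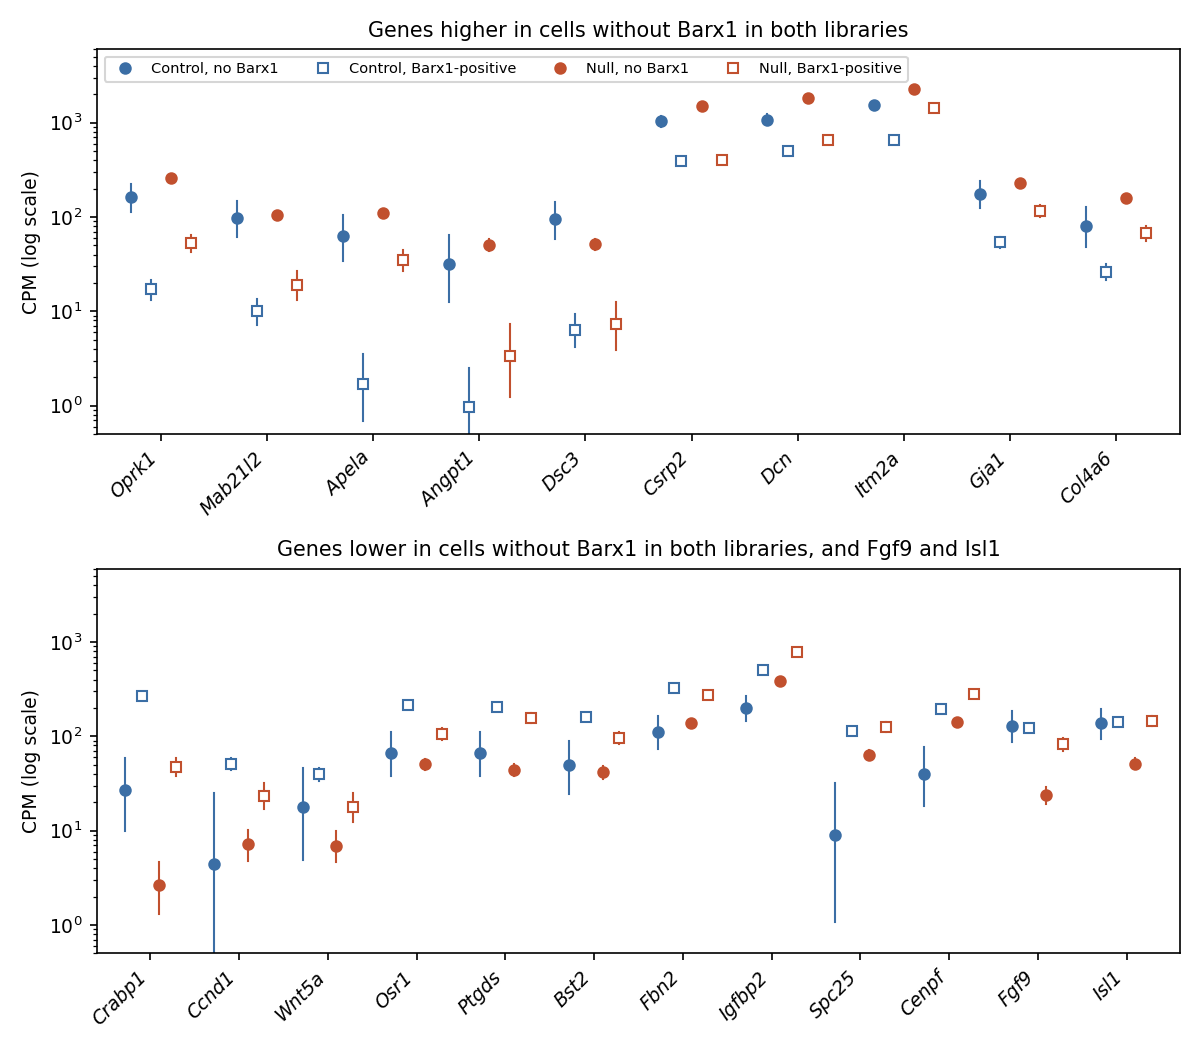
CPM on a log axis in the 4 mesothelial sets (Control and Null, without and with Barx1) for genes higher and lower in cells without Barx1, with exact 95% Poisson intervals. Intervals that reach below the axis are cut at its edge (Angpt1, Ccnd1), and Oprk1 is higher without Barx1 in both libraries (161 against 17.0 and 257 against 53.1 CPM), Crabp1 lower.

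Between the genotypes, 977 of the 8081 genes measured (12.1%) were at least 2-fold higher in the Null cells without Barx1 and 283 (3.5%) at least 2-fold lower. The higher group was led by replication-dependent histones, matrix and matrix-remodelling genes and cytoskeletal genes, and the lower group by Lhx9, Fgf9 and Nrgn. The median gene was at a log2 ratio of 0.07. In the Control set 2273 of the genes had under 5 UMIs, 150 were at 0 and the median was 8 UMIs. In counts simulated for sets of these sizes with counting error only, 9.52% of unchanged genes passed 2-fold in either direction. With all 333 Control mesothelial cells on the Control side, 456 of 10059 genes (4.53%) were at least 2-fold higher and 396 (3.94%) lower. That comparison shares all its Null cells and the 23 Control cells with the first.

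Among matrix genes, Lum, the proteoglycan lumican, was at 4.48 CPM from 1 UMI in Control and 85.3 CPM in Null, a ratio of 4.25 (1.76 to 9.56). Fn1, fibronectin, was at 35.9 and 190 CPM, a ratio of 2.40 (1.42 to 3.62), and 1.09 over all mesothelial cells, where the Barx1-positive cells had 93.04 and 198 CPM. The gelatinase Mmp2 was at 8.97 and 72.7 CPM, a ratio of 3.02 (1.15 to 6.07). Egfl6, an X-linked secreted matrix protein, was at 26.9 CPM from 6 UMIs and 151 CPM, but the Control Barx1-positive cells had 150 CPM, and against all Control mesothelial cells the ratio was 0.073 in place of 2.49. Against all Control mesothelial cells the ratio was 1.03 for both Igfbp3 and Colec12. Colec12, a scavenger receptor, was at 58.3 and 223 CPM. Igfbp3 was at 8.97 and 83.2 CPM, and Anxa1, a phospholipid-binding protein, at 4.48 CPM from 1 UMI and 64.1 CPM. Lum and Anxa1 were also higher in Null cells without Barx1 than in Null cells with it, at 85.3 against 19.6 CPM and 64.1 against 20.7 CPM, whereas for Fn1 the ratio between these 2 sets was -0.06 (-0.25 to 0.12).

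Of the cytoskeletal genes, Tagln, an actin-binding protein of smooth muscle, was at 62.8 CPM in Control and 250 CPM in Null, a ratio of 2.00 (1.24 to 2.87), and 3.02 over all mesothelial cells. Another smooth muscle gene, the actin Acta2, was at 0 and 22.2 CPM, and the part of mural cells was not tested. Prph, the neuronal intermediate filament peripherin, was at 31.4 and 204 CPM, 2.70 (1.65 to 4.02). Stmn2, a microtubule regulator of neurons and one of the neural markers above, was at 44.8 and 223 CPM, and 9 of its 10 Control UMIs sat in 1 cell, without which the ratio was 5.56. Myl7, an atrial myosin light chain, was at 0 UMIs in Control and 182 UMIs in Null. Its log2 ratio was 1.69 with 3 counts put for the 0, and the lower limit of the interval was 1.38. The histones Hist1h2ap, Hist1h1b, Hist2h2ac and Hist1h2ae had ratios of 2.63, 2.62, 3.95 and 2.09. Histone genes come in near-identical copies, and their Control cells without Barx1 were also below the Control cells with it (89.7 against 482 CPM for Hist1h2ap). For Hist1h2ap the other 3 sets lay between 426 and 556 CPM. For Hist1h1b the ratio over all mesothelial cells was -0.51, opposite in sign.

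On the lower side, Lhx9, a LIM homeobox gene of mesothelium and mesenchyme, was at 126 CPM in Control (83.4 to 181) and 18.8 CPM in Null (14.9 to 23.5), a ratio of -2.74 (-3.38 to -2.06). It was at 100 and 51.4 CPM in the Barx1-positive cells, so among the mesothelial sets it was lowest in the Null cells without Barx1. Isl1, another LIM homeobox gene, was likewise lowest there, at 139, 143, 51.3 and 146 CPM for Control without, Control with, Null without and Null with Barx1. The Null ratio of cells without to cells with Barx1 was -1.51 (-1.78 to -1.25) for Isl1 and -1.45 (-1.90 to -0.9995) for Lhx9. Nrgn, a calmodulin-binding protein of neurons, was at 135 and 31.7 CPM without Barx1 and at 142 and 35.8 CPM with it, and thus followed the library and not Barx1. Ly6h and the high-mobility-group gene Tox3 were at 94.2 and 144 CPM in Control and 27.7 and 49.4 CPM in Null.

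In the lower group, Mfap4, Plpp3, Ntng1 and Fdps changed direction under another processing, and the rest kept it. Mfap4, a microfibril protein, was at 135 CPM in Control cells without Barx1 and 48.2 CPM in Null, but 1 Control cell held 12 of its 30 Control UMIs, without it the ratio was -0.86 in place of -1.48, and against all Control mesothelial cells it was 1.03. Plpp3, a lipid phosphatase, and the netrin-family gene Ntng1 had ratios of -1.28 and -1.23 that became 0.11 and 0.64 against all Control mesothelial cells. Rpl29 was at 1260 and 468 CPM, between -1.61 and -1.09 under 13 of 13 alternatives, with near-identical pseudogene copies that make its count uncertain. Ccnd2, a D-type cyclin, was at 556 CPM in Control and 272 CPM in Null, a ratio of -1.03 (-1.30 to -0.75), and at 264 and 167 CPM in the Barx1-positive cells. Against all Control mesothelial cells the ratio of Ccnd2 was -0.037. Fdps, of the cholesterol pathway, had a ratio of -1.44, which was 0.21 after thinning to 2000 UMIs, and Timm10, Nkapd1 and Tmx2 ratios of -1.58, -1.49 and -1.51.

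**Figure D3:**
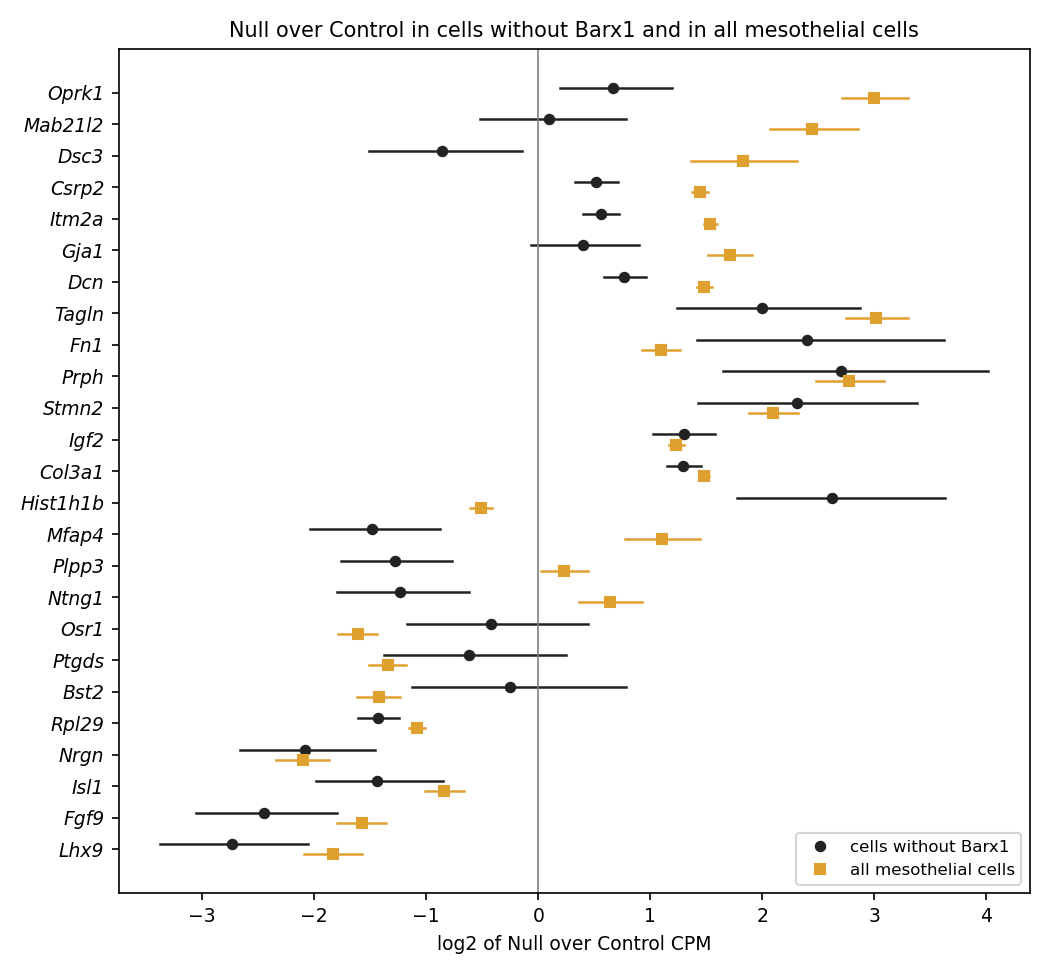
Log2 ratio of Null over Control in mesothelial cells without Barx1, with exact 95% intervals, beside the ratio over all mesothelial cells, for genes described in the text. The 2 ratios share cells, and Fgf9 and Lhx9 are below 0 in both, whereas for Dsc3, Mfap4, Plpp3, Ntng1 and Hist1h1b they have opposite signs.

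The gene lists were read against the median of all genes, 0.07. Under the alternative processings that gave a value, the medians of the matrix and epithelial-mesenchymal transition lists stayed above 0 and that of the cholesterol list below 0. The median changed sign under at least 1 alternative for the mesothelial, basement membrane, junction, integrin, retinoic acid, TGF-beta, BMP, Wnt, Hedgehog, Notch, insulin-like growth factor, Hox and organ-position lists, so no direction is read from these. Of 27 measured fibrillar collagen and matrix genes, 24 were higher and 3 lower in the Null cells without Barx1, 11 of them at least 2-fold higher (12.1% of all genes were), with a median ratio of 0.77. Col3a1 was at 1641 and 4029 CPM, a ratio of 1.30 (1.15 to 1.45), Col1a1 at 1067 and 2576 CPM, and Postn, the matricellular protein periostin, at 22.4 and 103 CPM. The list summed to 9758 CPM in Control and 17854 CPM in Null, and to 7414 and 12647 CPM in the Barx1-positive cells. Per cell, the list's median was 95.03 UMIs per 10000 in Control (22.2 to 164) and 173 in Null (51.5 to 408), against 67.0 and 113 in cells with Barx1. Ranges overlapped, and the highest Control cell lay below the Null median. Mesenchymal markers, 5354 and 10997 CPM as given above, share Col1a1, Col1a2, Col3a1, Dcn, Lum, Postn and Mfap4 with this list. The mesenchymal markers outside the list were low in both genotypes. Pdgfra, the receptor that marks fibroblasts, was at 0 in Control and 1.19 CPM in Null, against 10.3 and 7.56 CPM in other cells, Prrx1 at 8.97 and 2.38 CPM against 24.4 and 10.7 CPM, and Meox1 at 0 in all 4 sets.

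Genes of epithelial-mesenchymal transition were 9 higher and 2 lower of 11, with a median of 0.75. All 6 integrin genes measured were higher, 0 of them by 2-fold (12.1% of all genes were), with a median of 0.60. The integrin, basement membrane, junction and mesothelial medians changed sign under an alternative, as given above, so no direction is read from them. Itgb1, the common beta subunit, was at 377 CPM in Control and 530 CPM in Null. Basement membrane genes were 11 higher and 5 lower of 16, with a median of 0.29, led by Lama5 at 4.48 CPM from 1 UMI and 37.9 CPM. Junction and polarity genes were 6 higher and 8 lower of 14, with a median of -0.14, the lowest being Cldn7, a tight junction claudin, at 53.8 and 14.8 CPM. The whole junction list summed to 655 and 548 CPM, against 1600.5 and 1738 CPM in other cells. The part of free RNA in it was not tested. The 18 measured mesothelial genes outside the rule were 10 higher and 8 lower, with a median of 0.21. Muc16, a mucin of mesothelial surfaces, was at 76.2 and 43.4 CPM, and Krt19, a simple-epithelial keratin, at 184 and 337 CPM.

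Retinoid genes were split and sterol genes mostly lower. Of 8 retinoic acid genes measured, 3 were higher in Null, all by at least 2-fold, and 5 lower, 2 of them by 2-fold, with a median of -0.47. Of all genes, 12.1% were at least 2-fold higher and 3.5% at least 2-fold lower. The higher ones included the retinaldehyde reductase Dhrs3 (17.9 and 41.2 CPM) and the receptor Rarg (8.97 and 18.4 CPM), from 4 and 2 Control UMIs. Rbp4, a retinol carrier, was at 49.3 and 15.7 CPM, below the 253 and 306 CPM of other cells, and the retinol dehydrogenase Rdh10 at 58.3 and 27.9 CPM. Aldh1a2, the retinaldehyde dehydrogenase that makes retinoic acid in mesothelia, was at 229 CPM in Control and 156 CPM in Null without Barx1, and at 274 and 247 CPM with it. The list summed to 516 and 401 CPM without Barx1 against 874 and 728 CPM with it. Of 15 cholesterol synthesis genes, 4 were higher and 11 lower in Null, with a median of -0.56. Hmgcs1, which makes HMG-CoA early in the pathway, was at 67.3 and 36.5 CPM, and Fdft1, squalene synthase, at 62.8 and 23.4 CPM. The cholesterol list was also lower in cells without Barx1 than with it, in 14 of 16 genes in Control (median -0.54) and 15 of 16 in Null (median -0.63).

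Signalling lists were mixed. The medians of the TGF-beta, BMP, Wnt, Hedgehog, Notch and insulin-like growth factor lists changed sign under an alternative, as given above, so no direction is read from them. TGF-beta pathway genes were 8 higher and 3 lower of 11, with Ltbp1, a binding protein of latent TGF-beta, at 26.9 and 77.7 CPM. BMP pathway genes were 6 higher and 3 lower of 9, with Id3, a target of BMP signals, at 211 and 430 CPM and the ligand Bmp4 at 76.2 and 47.9 CPM. Wnt and R-spondin genes were 7 higher and 5 lower of 12. Wnt4 (22.4 and 57.2 CPM) and the inhibitor Dkk2 (22.4 and 67.2 CPM) stood high. Their Control values came from 4 and 2 cells, with 80% of the Control Dkk2 UMIs in 1 cell. The ligand Wnt5b (49.3 and 21.0 CPM) and Rspo3 (220 and 130 CPM) stood low. Hedgehog genes were 3 higher and 4 lower of 7. The 3 Notch genes measured were lower, with a median of -0.79. The whole Notch list summed to 336 and 190 CPM, against 1001 and 884 CPM in other cells. The part of free RNA in these sums was not tested. Insulin-like growth factor genes were 8 higher and 3 lower of 11, with a median of 0.94, and the ligand Igf2 was at 502 and 1235 CPM while Igf1 was at 448 and 431 CPM. Axon guidance genes, many of which also act outside neurons, were 16 higher and 8 lower of 24, from the receptor Robo2 at 53.8 and 17.2 CPM to the semaphorin Sema3e at 4.48 CPM from 1 UMI and 43.4 CPM.

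Transcription factors of organ position were close to the background, 7 higher and 4 lower of 11 with a median of 0.07. Isl1 was the lowest of them, Gata6, an endodermal and mesodermal GATA factor, was at 148 and 287 CPM, and the nuclear receptor gene Nr2f2 was at 179 and 123 CPM. Hox genes were 7 higher and 4 lower of 11, from Hoxc5 at 40.4 and 16.2 CPM to Hoxa5 at 13.5 and 35.3 CPM. Immediate early genes, which respond to dissociation, were 17 higher and 2 lower of 19, with a median of 0.70, and Fos was at 265 and 546 CPM. Their part in the other results was not tested.

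**Figure D4:**
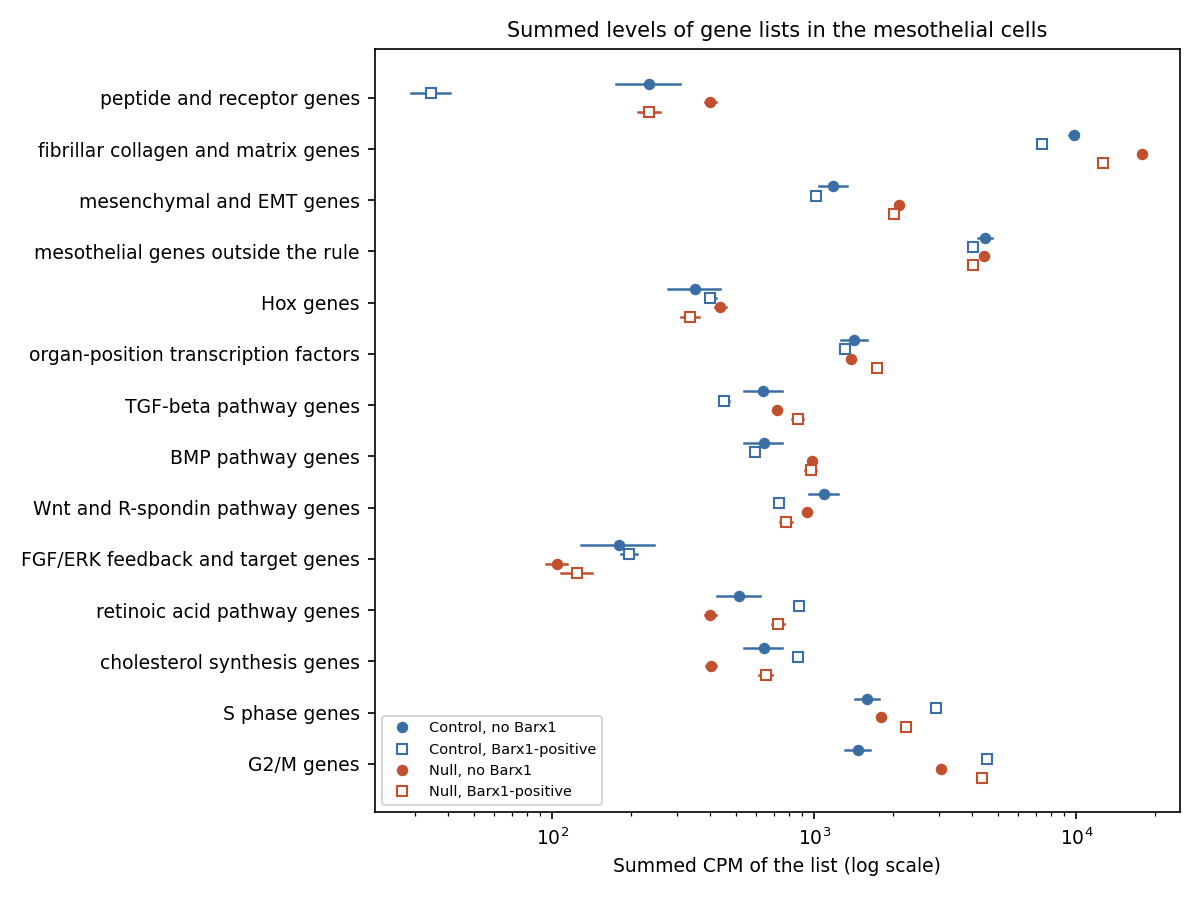
Summed CPM of the gene lists in the 4 mesothelial sets, with exact 95% intervals. The matrix list is highest in the Null cells without Barx1 (17854 CPM), and the G2/M list is lowest in the Control cells without Barx1 (1462 CPM).

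Cell-cycle genes separated the sets in a way that depended on the measure. All 29 G2/M genes measured were higher in the Null cells without Barx1 than in the Control cells, 21 of them at least 2-fold against 12.1% of all genes, with a median ratio of 1.32. The list's sum was 1462 CPM in Control and 3054 CPM in Null without Barx1, and 4559 and 4367 CPM with it. The median cell went the other way, with 11.5 G2/M UMIs per 10000 in Control (4.98 to 108) and 6.89 in Null (0.652 to 232). Cells above 20 per 10000, a limit chosen after the values were seen, were 2 of 23 in Control (8.70%, 1.07% to 28.0%) and 41 of 217 in Null (18.9%, 13.9% to 24.7%). In the Barx1-positive cells 124 of 310 (34.5% to 45.7%) and 24 of 85 (19.001% to 39.04%) did so. Against all Control mesothelial cells the median G2/M ratio was -0.46, and with Barx1 absence judged after thinning it was -0.18, so the direction of this list depends on which Control cells are taken.

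Within each library most G2/M and S phase genes were lower in cells without Barx1 than in cells with it. In Control 30 of 30 G2/M genes were lower, with a median of -1.85, and in Null 29 of 30, with a median of -0.58. Of 31 S phase genes, 31 were lower in Control (median -0.96, 14 by 2-fold) and 28 in Null (median -0.23, 0 by 2-fold). The all-gene medians were -0.08 and -0.11. In simulated counts, 9.47% of unchanged genes passed 2-fold in either direction in the Control comparison and 0.27% in the Null comparison. The share of all genes at least 2-fold lower in 1 library alone is not given here. The replication histones were an exception in Null, where Hist1h2ap stood at 0.39 and Hist1h1b at 0.43. Mki67 or Top2a, genes of cycling cells, had a UMI after thinning in 21.7% and 34.8% of Control cells without and with Barx1, and in 15.2% and 28.2% of Null cells. Enzyme-high cells gave 54.5% and 47.7% by the same measure. Cdkn1c, an imprinted inhibitor of cyclin-dependent kinases, was at 2036 CPM in Control and 3089 CPM in Null without Barx1, and at 1397 and 1966 CPM with it.

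**Figure D5:**
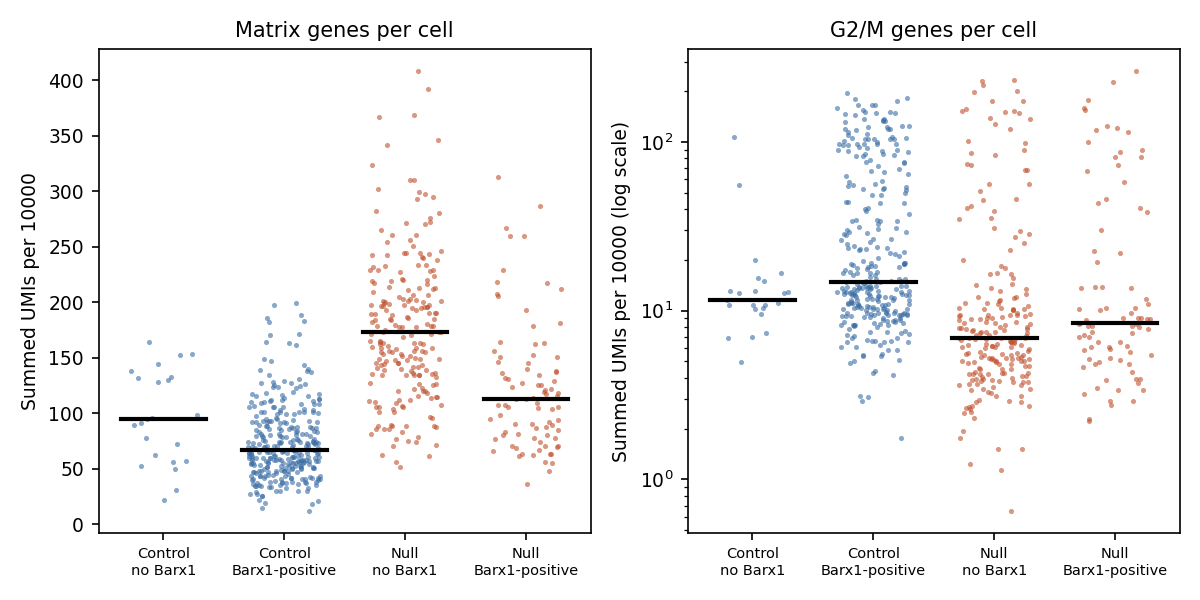
Summed UMIs per 10000 of the matrix list and of the G2/M list in each mesothelial cell, by library and Barx1. Matrix medians are 95.03 (Control) and 173 (Null) in cells without Barx1, and the G2/M values show a low body of cells with a tail above 20.

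The Null cells without Barx1 varied among themselves in cell cycle, dissociation and matrix genes, and in the genes that mark the set. This was read in the 197 cells thinned to 10000 UMIs, by the Fano factor (variance over mean of UMIs), whose median over 2872 genes was 1.19. The highest factors were those of Malat1 (37.2), Hist1h2ap (30.5) and Hmgb2 (21.6), and Atf3, Dcn, Stmn2, Cdkn1c and Fos lay between 11.2 and 12.6. Oprk1 was detected in 111 of the 197 cells, Mab21l2 in 103, Apela in 79, Isl1 in 72 and Fgf9 in 40. Apela was seen in 52.3% of cells with an Oprk1 UMI and in 24.4% of those without. Mab21l2 was seen in 36.1% of cells with an Isl1 UMI and 61.6% of those without, and Fgf9 in 33.3% and 12.8%. Pnoc, which encodes the peptide precursor of nociceptin, was seen in 1 of 111 cells with Oprk1 (0.901%) and in 20.9% of those without. These pairs were chosen after the values were seen and are descriptions of cells of 1 library at one depth.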

How the data were processed

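The 2 gene-by-barcode matrices of whole UMI counts, 1 per genotype, were used as the authors deposited them. Per the submitters' processing notes they were made with bcl2fastq, Cell Ranger 6.1.1 and the mm10 genome, with Seurat 3.2.3 also named. Cells were selected and summed per library and set with Python 3.11.15, scipy 1.17.1 and pandas 2.3.3. CPM are UMIs per 1000000 of a set without mitochondrial and haemoglobin genes, log2 ratios have exact conditional Poisson intervals, and shares have Clopper-Pearson intervals. A gene with 0 UMIs was taken as 3 counts in a ratio. Genes needed 50 UMIs over both libraries or, against Barx1-positive cells, 50 UMIs over both sets in each library. Scrublet (scanpy 1.11.5) marked doublets, which were kept. The members and the 27 gene lists were chosen with earlier results of these data known. Genes compared between genotypes needed 100 UMIs and 20 CPM and were ranked by the interval bound nearest 0, 15 per direction, those against Barx1-positive cells likewise, 10 per direction, those against other cells 12, and list members by ratio or role. Predicted, sex-linked marker, mitochondrial, haemoglobin and rule genes were left out. Scripts were tested on simulated data. Coordinates follow GENCODE vM21. No test between the libraries was possible with 1 sample per group. The libraries held 339959625 (Control) and 271129120 (Null) UMIs in 30209 and 16708 barcodes. Some genes that met these rules are not reported here.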

Additional observations from a re-analysis of the deposited data

Results flagged for a closer look

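For 15 genes the cells without Barx1 differed from the Barx1-positive cells in opposite directions in the 2 libraries, with each interval on its own side of 0. With 1 library per genotype the difference itself was not tested, and every Control value rests on 23 cells. Values are log2 ratios of cells without over cells with Barx1, Control first.

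Replication histones were lower without Barx1 in Control and higher in Null: Hist1h2ap at -2.43 and 0.39, Hist1h1b at -3.09 and 0.43, Hist2h2ac at -3.66 and 0.60, and Hist1h2ae at -1.83 and 0.42. Mgp, the matrix Gla protein, had -0.83 and 1.96, with 58.3 and 104 CPM in Control without and with Barx1 and 208 and 53.7 CPM in Null. The keratin Krt19 had -0.68 and 0.71. Cdkn1a, an inhibitor of cyclin-dependent kinases, had -2.26 and 2.68, from 2 UMIs in the Control cells without Barx1 and 5 UMIs in the Null cells with it.

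The other 8 genes were higher without Barx1 in Control and lower in Null. Tox3 had 1.04 and -0.70, Plpp3 1.52 and -0.37, Flrt3 1.25 and -0.33, and Btg2 0.73 and -0.24. Timm10 had 0.82 and -0.57, Nkapd1 1.10 and -0.43, Tmx2 0.89 and -0.46, and Rpl29 0.30 and -0.20.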

How the results depend on the processing

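The share of cells without Barx1 was higher in the Null library under every setting tried. Each setting reuses the Barx1 counts of the rule in the same 2 libraries, so these shares still describe the selection. With Barx1 judged after thinning to 2000 UMIs (a separate random draw), the shares of mesothelial cells were 43.2% and 91.4%, and of all filtered cells 0.883% and 3.45%. With up to 1 Barx1 UMI allowed, an alternative chosen after seeing the data, they were 12.3% and 82.1%, and 0.251% and 3.10%. With at least 5 marker UMIs and 4 per 10000 the shares of filtered cells were 0.0736% and 2.21%. With Cpa1 and Ctrb1 under 10 per 10000 only 2 Control cells remained, 2.86% of mesothelial and 0.0123% of filtered cells, against 2.00% of filtered cells in Null.

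Counts of genes past the fold moved, in part because the number of genes tested did. For Null over Control, 977 higher and 283 lower of 8081 genes became 142 and 34 of 1409 after thinning (10.1% and 2.41%). They became 219 and 19 of 3323 at 200 UMIs per gene, and 105 and 48 of 3023 at a mean of 50 CPM (chosen after seeing the data). With the stricter enzyme limit they became 240 and 4524 of 7257. There only 2 Control cells remained and a Control count of 0 was taken as 3, so genes unseen in them could count as lower by construction. The lower count was 953 of 10559 at 20 UMIs per gene. At that minimum too, a gene seen only in Null could count as lower, because its Control count of 0 was taken as 3. The higher count was 440 of 9689 with Barx1 judged after thinning and 456 of 10059 against all Control mesothelial cells, also chosen after seeing the data. Against Barx1-positive cells, 27 higher and 52 lower of 7925 became 3 and 3 of 1644 after thinning. They were 9 and 0 of 7925 with Barx1 judged after thinning, and 10 and 5 of 3496 with the enzyme limit. At 20 UMIs they were 88 and 84 of 10374, at 200 UMIs 5 and 12 of 3221, and at 50 CPM 10 and 8 of 2767. Counts of 0 were taken as 3 here as well. The higher count was 15 of 6417 with the marker limit. The 425 genes above other cells (5.26%) became 69 of 1409 (4.90%) after thinning, 191 of 3323 (5.75%) at 200 UMIs and 178 of 3023 (5.89%) at 50 CPM. Fewer genes are tested at the higher minimums and after thinning by construction. Apart from that and the counts of 0 taken as 3, the cause was not tested.

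Of 101 ratios and list medians of at least 2-fold, 12 changed sign under an alternative, as follows. Of 105 under 2-fold, 76 changed sign under at least 1 alternative, and their direction is not to be relied on. With Barx1 judged after thinning, Null over Control became -0.18 for the G2/M median, -0.36 for Hist1h1b, 0.45 for Mfap4, 0.35 for Ntng1, -0.14 for Cenpf, -0.42 for Spc25 and -0.29 for Ccnb1, and the Control ratio to Barx1-positive cells 0.17 for Igfbp2 and 0.043 for Osr1. Against all Control mesothelial cells the values were -0.46 for the G2/M median, -0.40 for Hist1h1b, 1.03 for Mfap4, 0.11 for Plpp3, 0.64 for Ntng1, -0.41 for Cenpf, -0.78 for Spc25 and -0.61 for Ccnb1. After thinning, Fdps was at 0.21, and the Control median of cyclin genes against Barx1-positive cells at 0.068, or 0.38 at 50 CPM. The cause was not tested.

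Fgf9 stayed lower in Null in 13 of 13 alternatives, from -3.003 to -1.85. A minimum of 5000 UMIs, doublet removal, equal cell weights, centring, free RNA subtraction, a 5% mitochondrial limit and the filter on genes of other cells moved no share or count by over the limit set. Leaving out a replicate was not possible with 1 library per group. No paired analysis was possible because each group has 1 library. Some results had no value, 29 of them after thinning and 42 under the enzyme limit, for lack of counts. Depth limits the Control side most, where 2273 of 8081 genes had under 5 UMIs.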
